A study of Mus musculus with 12 samples.

Results

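The 38 genes described here encode the machinery that takes a cell through the end of G2 and through division: mitotic cyclins and their kinase, mitotic kinases, the spindle checkpoint and anaphase-promoting complex, the kinetochore, the spindle, the central spindle and cytokinesis, and chromosome structure. They were chosen by symbol from a list of known genes of these functions, with earlier results of these data known. All 38 were found among the 56980 features of the deposited gene table. RNA came from mouse bone-marrow-derived macrophages, which were cultured from marrow in M-CSF, a growth factor, frozen on day 7 of culture, thawed and kept in M-CSF. The genotypes were wild type (WT) and a knockout (Trem2 KO) of Trem2, the gene of a macrophage receptor for lipids. Treatment lasted 22 hours and was the solvent DMSO or 25 nM bafilomycin A1, called BafA1 here, which blocks the V-ATPase and so keeps lysosomes from acidifying. The 4 groups, WT DMSO, WT BafA1, Trem2 KO DMSO and Trem2 KO BafA1, held 3 libraries each, labelled as biological replicates, each from bones of several mice pooled together (3 mice for knockout studies). The labels give no strain, sex or age, and they do not give the deleted part of Trem2 or the cell type in which it was deleted.

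Cyclin B bound to the kinase Cdk1 drives entry into mitosis, and kinases of the Polo and Aurora families then build the spindle and correct faulty attachments of chromosomes. The spindle checkpoint senses unattached kinetochores, the protein platforms on centromeres, and holds back the anaphase-promoting complex, which marks cyclin B and securin for destruction. RNA of these genes rises late in the cycle and is low in resting cells. Their promoters commonly hold CCAAT boxes, which bind the factor NF-Y, and a cell cycle homology region (CHR), which binds the MuvB complex. MuvB acts as a repressor (DREAM, with Rbl1 or Rbl2 and E2f4) in resting cells and as an activator with Mybl2 and Foxm1 in dividing cells. M-CSF is the growth signal of cultured macrophages, which divide while they mature from marrow precursors.

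Promoter sequences are shown because these elements are what the members' regulation is known for. RefSeq promoter windows of build GRCm38.p6 (250 bases before to 50 after the start of the gene) were found for 30 of the 38 genes, in 32 windows. There was no entry for Smc4, Cdc25c, Spc24, Ccna2, Incenp, Aurkb, Tpx2 and Kif20a. The 6 windows printed run from 150 bases before the start to 25 after it, 5′ to 3′ on the strand of the gene, and capitals mark the letters of a CCAAT box (CCAAT, or ATTGG on the other strand) or a CHR (TTTGAA or TTCGAA, or TTCAAA on the other strand). The counts described later were made on another build, GRCm39, and no coordinates of that build are given. Ccnb1, cyclin B1, lies at chr13:100786462-100786636 on the minus strand; Ccnb2, cyclin B2, at chr9:70421530-70421704, minus; Cdc20, the activator of the anaphase-promoting complex, at chr4:118437319-118437493, minus; Top2a, the topoisomerase that untangles sister chromosomes, at chr11:99024165-99024339, minus; Cenpa, the histone H3 variant that marks centromeres, at chr5:30666736-30666910, plus; and Kif11, the motor that pushes spindle poles apart, at chr19:37376232-37376406, plus.
Ccnb1: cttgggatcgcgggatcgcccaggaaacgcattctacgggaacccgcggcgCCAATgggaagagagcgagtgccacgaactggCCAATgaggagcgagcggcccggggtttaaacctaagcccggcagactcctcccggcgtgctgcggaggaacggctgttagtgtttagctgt
Ccnb2: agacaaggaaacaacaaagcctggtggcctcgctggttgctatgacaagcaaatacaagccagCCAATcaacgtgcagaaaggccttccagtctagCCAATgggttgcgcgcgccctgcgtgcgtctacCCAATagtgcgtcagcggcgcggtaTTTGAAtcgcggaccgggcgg
Cdc20: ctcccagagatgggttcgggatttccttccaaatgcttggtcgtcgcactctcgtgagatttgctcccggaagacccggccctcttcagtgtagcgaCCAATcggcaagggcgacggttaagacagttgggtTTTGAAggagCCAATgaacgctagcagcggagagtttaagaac
Top2a: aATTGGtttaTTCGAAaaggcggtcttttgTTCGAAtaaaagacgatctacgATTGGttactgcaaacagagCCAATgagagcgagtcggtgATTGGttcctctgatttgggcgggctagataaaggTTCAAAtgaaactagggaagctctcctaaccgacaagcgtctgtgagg
Cenpa: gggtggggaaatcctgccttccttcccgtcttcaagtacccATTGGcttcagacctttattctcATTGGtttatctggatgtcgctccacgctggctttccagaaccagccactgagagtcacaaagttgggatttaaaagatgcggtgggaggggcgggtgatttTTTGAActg
Kif11: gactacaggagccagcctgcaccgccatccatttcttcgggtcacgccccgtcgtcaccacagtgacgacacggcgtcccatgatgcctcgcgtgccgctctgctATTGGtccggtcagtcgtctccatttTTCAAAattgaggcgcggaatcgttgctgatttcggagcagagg

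The printed Ccnb2 window held 3 CCAAT boxes and a CHR next to the start, Cdc20 held 2 boxes and Kif11 a single box with a CHR each, and Top2a held 4 boxes and 3 CHR matches. Cenpa had 2 boxes upstream and its CHR after the start, whereas the Ccnb1 window had 2 boxes and no CHR of these letters. Over the full windows, CCAAT letters occurred in 81.2% of the members' 32 promoters and in 37.4% of all 32851 promoters of the table. At least 2 boxes occurred in 50.0% and 11.7%. A CHR within 50 bases of the start occurred in 78.1% of the members' promoters and in 5.31% of all promoters, and both elements anywhere in the window in 75.0% and 7.52%. The E2F core GCGGGAA (or TTCCCGC on the other strand), whose letters contain neither of the other motifs, was found in 1 of the 32 promoters (3.12%), that of Ncapg, and in 4.6% of all promoters. Among 41 promoters of 34 DNA replication and G1/S genes, the same searches found a CHR near the start in 12.2% and the E2F core in 39.0%. A match of letters is a description of the sequence and no measurement of binding.

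**Figure D1:**
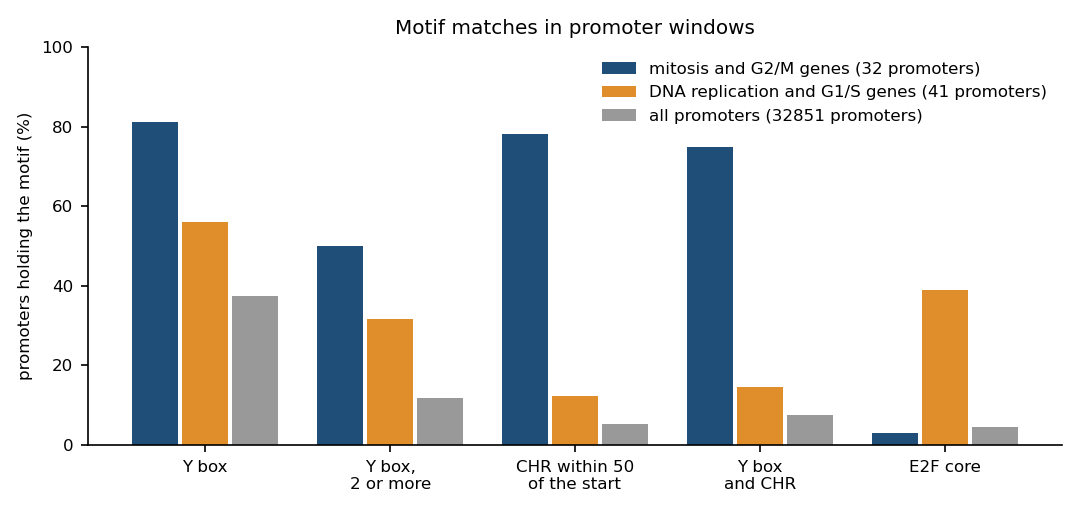
Share of RefSeq promoter windows (y axis, percent) that hold each motif (x axis; Y box is the CCAAT box), for the mitosis and G2/M genes, for DNA replication and G1/S genes and for all promoters of the table. A CHR within 50 bases of the start was found in 78.1%, 12.2% and 5.31% of them, and the E2F core in 3.12%, 39.0% and 4.6%.

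Libraries held 4407466 to 7074860 estimated counts from 3′ ends of mRNA, with RNA integrity numbers between 9.7 and 9.9 per the labels. Levels are given as CPM, the count scaled to a TMM-normalized library size. A 3′ tag does not scale with transcript length. Levels are compared within a gene, apart from sums over several members, in which genes with more counts weigh more. Of the 38 members 37 passed the filter on low counts; Cdc25c, a phosphatase that activates Cdk1, had 7 to 10 counts per library in WT DMSO and 0 to 3 elsewhere, and was not tested. The RNA matched the labelled cell type, with all 9 macrophage markers detected in every group at a summed 5420 to 8926 CPM. Lyz2, with group means of 3748.1 to 5298.5 CPM, made up most of the sum in each group. All markers but Cd68 had lower means in BafA1 than in DMSO in both genotypes. Fcgr1 had means of 47.5 and 3.03 CPM in WT DMSO and WT BafA1, and of 69.6 and 5.08 CPM in Trem2 KO. Trem2 was 1.47 lower on the log2 scale (SE 0.08) in Trem2 KO than in WT in DMSO and 1.33 lower (SE 0.08) in BafA1 and was not absent, which a tag outside the deleted part would allow.

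WT DMSO macrophages held most of the mitotic RNA. The summed level of the 38 genes was 1324, 1289 and 1456 CPM in the 3 WT DMSO libraries. It was 398, 352 and 360 CPM for WT BafA1, 333, 326 and 343 CPM for Trem2 KO DMSO, and 254, 268 and 256 CPM for Trem2 KO BafA1. The WT DMSO libraries lay far above the other 9, and no libraries of the 4 groups overlapped. Means were 1357 ± 88.1 (SD, n = 3), 370 ± 25.0, 334 ± 8.90 and 259 ± 7.37 CPM, so the other groups stood at 27.3%, 24.6% and 19.1% of WT DMSO. Each of the 38 genes had its highest group mean in WT DMSO. In bulk RNA, fewer dividing cells and less of these RNAs per cell cannot be told apart.

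**Figure D2:**
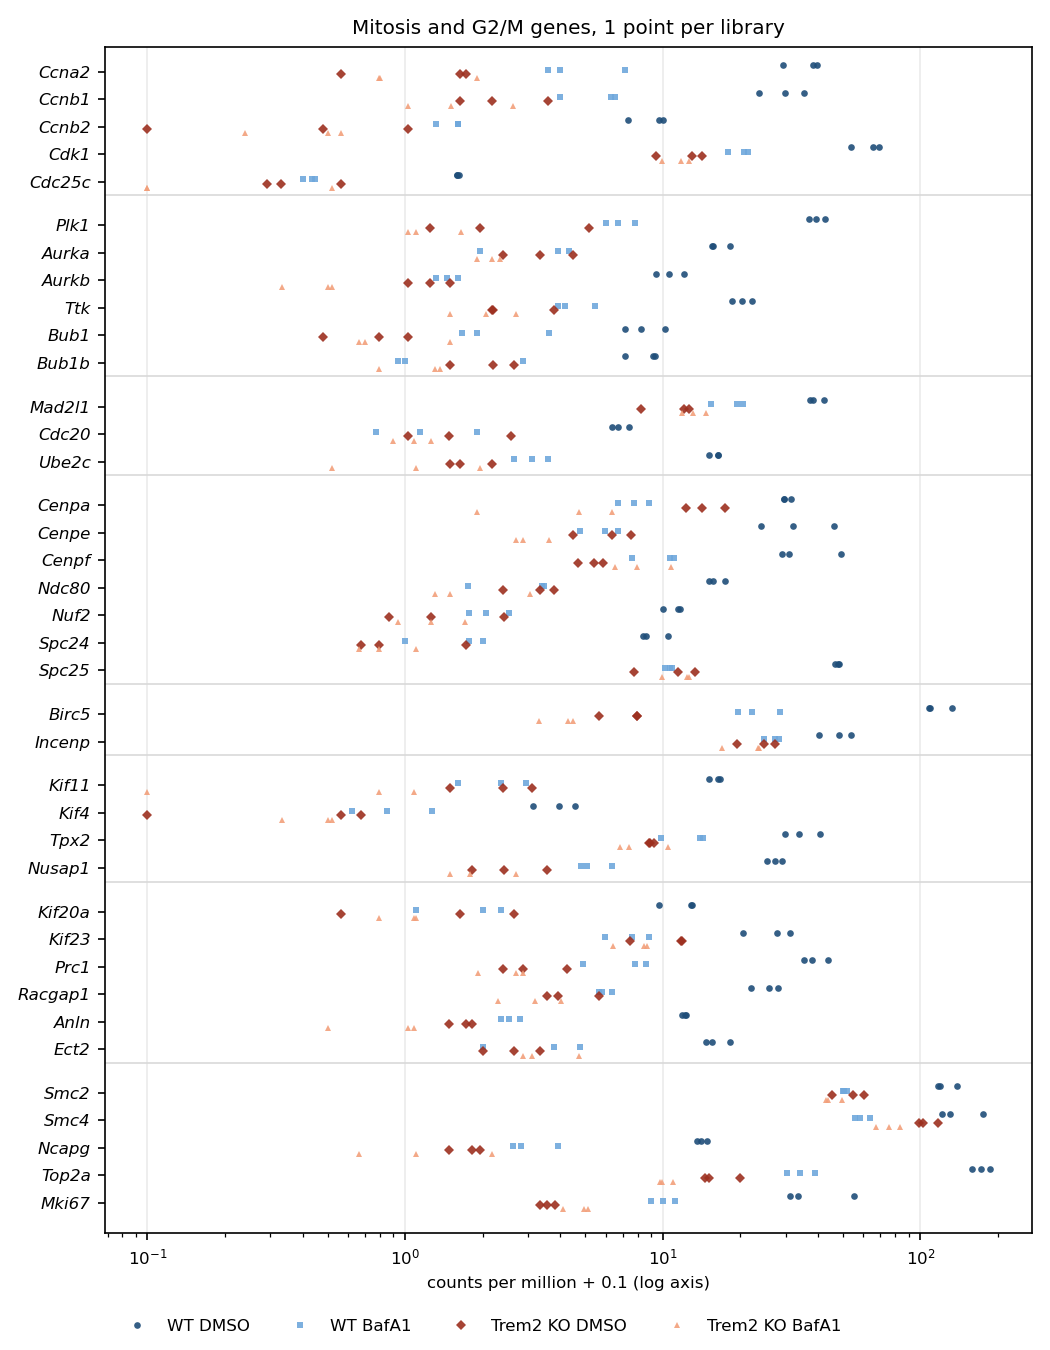
Level of each of the 38 genes (rows, grouped by role) in each library, as CPM + 0.1 on a log axis, with 1 point per library and colours and markers for the 4 groups. The 3 WT DMSO points are the rightmost of every row, and Smc4 keeps 74.5% of its WT DMSO mean in Trem2 KO DMSO, the highest share of any gene there.

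Smc2 and Smc4, the ATPase pair at the core of condensin, fell less than most members and weighed more in the sum as it shrank. They made up 18.0% to 21.6% of the summed CPM in WT DMSO libraries, 28.6% to 30.9% in WT BafA1, 45.9% to 49.9% in Trem2 KO DMSO and 43.7% to 49.7% in Trem2 KO BafA1. The other 36 genes summed to 1090 ± 50.6 CPM (SD, n = 3) in WT DMSO, 260 ± 21.8 for WT BafA1, 175 ± 9.99 for Trem2 KO DMSO and 138 ± 4.30 for Trem2 KO BafA1. Per gene, the median share of the WT DMSO level was 20.3% for WT BafA1, 13.5% for Trem2 KO DMSO and 9.94% for Trem2 KO BafA1.

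The question of the series, how WT and Trem2 KO macrophages respond to lysosomal alkalinization, gave for these genes a large response in WT and a small one in Trem2 KO. BafA1 lowered all 37 tested members in WT, where 25.3% of the 12052 tested genes were lower at an adjusted p under 0.05 (edgeR quasi-likelihood test, Benjamini-Hochberg over all genes tested). Their median log2 fold change was -2.29, from -2.93 for Aurkb to -0.83 for Incenp, beside a median of -0.044 over all genes. None was higher, with 0 at an unadjusted p under 0.05 and 0 by DESeq2 or limma-voom. The 3 libraries of each group did not overlap for any of the 37, which was so for 56% of all tested genes, and 27 members were more than 4-fold lower.

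Without drug, the same 37 members were lower in Trem2 KO DMSO than in WT DMSO, where 16.5% of tested genes were lower. Their median log2 difference was -2.91, with a range from -4.83 for Ccna2 to -0.43 for Smc4 and a median of -0.0073 over all genes. No member was higher by edgeR, DESeq2 or limma-voom, and 0 had an unadjusted p under 0.05 in that direction. Libraries did not overlap for any of the 37 (41.9% of all tested genes); 30 members were more than 4-fold lower and 15 more than 8-fold. Smc4 lost the call without WT DMSO replicate 3, with a log2 difference of -0.24 and an adjusted p of 0.089. This comparison and the BafA1 comparison in WT share the WT DMSO libraries, so their values stand side by side and are not independent.

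In Trem2 KO macrophages BafA1 lowered 7 of the 37 members, Kif11, Cenpa, Aurkb, Cenpe, Birc5, Top2a and Smc4. That share was no higher than the 20.7% of all tested genes that were lower. The median log2 fold change over the 37 was -0.44, beside 0.0019 over all genes. For the 30 members that did not pass, the 95% interval reached between 0.226 and 1.75 log2 units to either side of the estimate; it was widest for members with few counts. None was called higher by edgeR (19.8% of tested genes were) or limma-voom; 1 member, Cenpf, had an unadjusted p under 0.05 and was called by DESeq2. Without Trem2 KO BafA1 replicate 2 the count of lower members was 4, as Aurkb (adjusted p 0.052), Cenpe (0.062) and Birc5 (0.059) no longer passed. Aurkb also lost its call without any of Trem2 KO DMSO replicates 2 and 3 and Trem2 KO BafA1 replicates 1 and 3 (0.062, 0.092, 0.061 and 0.079), Birc5 without Trem2 KO DMSO replicates 1 and 3 (0.061 and 0.058), and Cenpe without Trem2 KO DMSO replicate 2 (0.12).

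The difference between both responses was tested as an interaction term, the log2 fold change in Trem2 KO minus that in WT. It was above 0 for all 37 members and called for 24, with 4.88% of tested genes called in that direction, 3.93% in the other and a median of 1.65 beside 0.015 over all genes. No member was called in the other direction, with 0 at an unadjusted p under 0.05 by edgeR, DESeq2 or limma-voom. Of the 24, 20 were not called in Trem2 KO and 4 were lower there too. The call held without each library in turn for 16 of the 24. It was lost for Ccna2 without Trem2 KO BafA1 replicate 2 (adjusted p 0.11), and for Ccnb1, Aurka, Cenpe and Ndc80 without Trem2 KO BafA1 replicate 1 (0.18, 0.074, 0.094 and 0.17). Aurka also lost it without WT BafA1 replicate 1 (0.051) or Trem2 KO DMSO replicate 2 (0.069), Cenpe without Trem2 KO DMSO replicate 1 (0.056), and Nuf2 without Trem2 KO DMSO replicate 2 (0.057) or Trem2 KO BafA1 replicate 2 (0.065). Spc24 lost it without any of 10 libraries (0.057 to 0.13), all but WT BafA1 replicate 3 and Trem2 KO DMSO replicate 1, and Incenp without any of 9 (0.058 to 0.12), all but WT DMSO replicate 2, Trem2 KO DMSO replicate 2 and Trem2 KO BafA1 replicate 3.

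**Figure D3:**
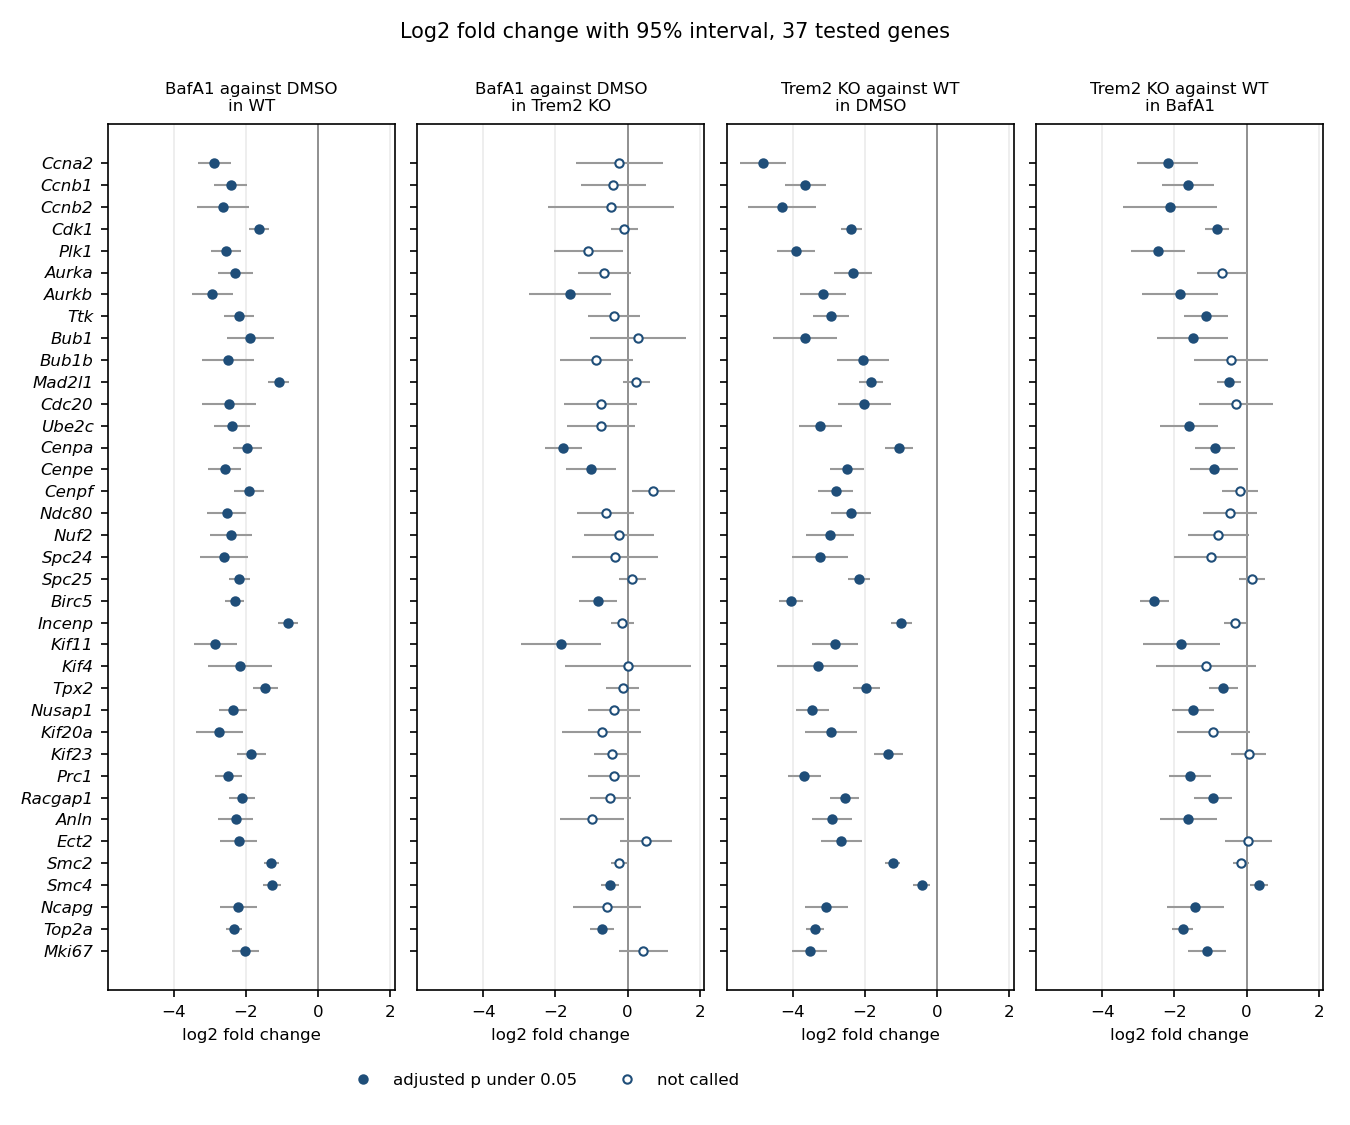
Log2 fold change with its 95% interval for the 37 tested genes (rows) in the comparisons named above each panel, with filled points for an adjusted p under 0.05 and open points for the rest. All 37 are filled and left of 0 for BafA1 in WT and for Trem2 KO against WT in DMSO, and 7 are filled for BafA1 in Trem2 KO.

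Under BafA1, 22 members were called lower in Trem2 KO than in WT, with 14.2% of tested genes lower. Over all 37 members, libraries did not overlap for 27, which was so for 40.9% of all tested genes. Among the 22, libraries overlapped for Tpx2 alone, at 10.4 CPM in Trem2 KO BafA1 replicate 2 and 9.73 CPM in WT BafA1 replicate 3. The median log2 difference was -0.93, beside 0.011 over all genes, and for each of the 37 it was smaller in size than the difference in DMSO. The call held without each library in turn for 14 of the 22 (Ccna2, Ccnb1, Cdk1, Plk1, Aurkb, Ttk, Ube2c, Birc5, Nusap1, Prc1, Racgap1, Anln, Top2a and Mki67) and was lost in some fit for the other 8. Without WT BafA1 replicate 1 the adjusted p was 0.16 for Bub1, 0.11 for Mad2l1, 0.079 for Cenpa, 0.1 for Cenpe, 0.063 for Kif11 and 0.09 for Tpx2. Without Trem2 KO BafA1 replicate 1 it was 0.11 for Bub1 and Mad2l1, 0.091 for Ccnb2, 0.078 for Ncapg, 0.087 for Tpx2 and 0.054 for Cenpe. The remaining losses were those of Bub1, Cenpa and Cenpe without Trem2 KO BafA1 replicate 2 (0.067, 0.094 and 0.11), of Mad2l1, Tpx2 and Cenpe without its replicate 3 (0.057, 0.079 and 0.1), of Mad2l1 and Tpx2 without WT BafA1 replicate 2 (0.076 and 0.072) and of Cenpe without WT BafA1 replicate 3 (0.13). Smc4 alone was higher in Trem2 KO (0.35, SE 0.12, adjusted p 0.041; 12.5% of tested genes were higher). That call was lost without WT BafA1 replicates 1, 2 or 3 (adjusted p 0.052, 0.11 and 0.13) and without Trem2 KO BafA1 replicates 2 or 3 (0.16 and 0.093).

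The 4 groups could also be ordered by gene. For 21 of the 38 members the means descended from WT DMSO through WT BafA1 and Trem2 KO DMSO to Trem2 KO BafA1, and 29 had their lowest mean in Trem2 KO BafA1. Trem2 KO DMSO lay below WT BafA1 for 27. Set against each other, these groups differ in both genotype and drug. Trem2 KO DMSO was lower for 15 members (24% of tested genes) and higher for 2, Cenpa and Smc4 (24.5% of tested genes); the other 20 tested members were not called. The calls held without each library in turn for 11 of the 15 and for Cenpa and Smc4. Among the 15 were Ccna2 (-1.95), Bub1 (-1.78), Birc5 (-1.73), Ccnb2 (-1.66) and Mki67 (-1.51). Without WT BafA1 replicate 1 the value for Bub1 was -1.36 (adjusted p 0.052) and that for Ccnb2 -1.62 (0.061). Ccnb2 was also not called without WT BafA1 replicate 2 (0.064) or Trem2 KO DMSO replicates 2 or 3 (0.082 and 0.12).

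The 4 tested genes of mitotic cyclins and Cdk1 had median log2 values of -2.53 with BafA1 in WT and -3.98 in the knockout in DMSO, the lowest medians of any role. Ccna2, cyclin A2, which carries cells through S phase and G2, stood at 39.5, 38.2 and 29.1 CPM in WT DMSO, 7.05, 3.91 and 3.48 for WT BafA1, 1.62, 1.53 and 0.463 for Trem2 KO DMSO and 0.701, 1.80 and 0.695 for Trem2 KO BafA1. Every BafA1-treated WT library lay between the WT DMSO and the knockout libraries, and the knockout groups overlapped with each other. Ccna2 was lower, at -2.88 (SE 0.22, adjusted p 3.9e-10) with BafA1 in WT and at -4.83 (SE 0.31, adjusted p 6.2e-11) in Trem2 KO DMSO against WT DMSO, which left 3.38% of the WT DMSO mean. With BafA1 in Trem2 KO its log2 value was -0.23 (SE 0.58, adjusted p 0.78).

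Ccnb1, cyclin B1, stood at 35.2, 23.6 and 29.7 CPM in WT DMSO, 6.21, 3.91 and 6.43 for WT BafA1, 2.08, 1.53 and 3.47 for Trem2 KO DMSO and 2.52, 1.40 and 0.926 for Trem2 KO BafA1. Cdk1, the kinase it activates, stood at 68.8, 65.4 and 53.7 CPM, 21.3, 20.6 and 17.9, 12.9, 9.35 and 14.1, and 11.6, 9.82 and 12.5 CPM in the same order of groups. For both genes the WT groups were apart from each other and from the knockout, and the knockout groups overlapped. Cdk1 fell by 1.64 (SE 0.13) with BafA1 in WT and was lower by 2.37 (SE 0.15) in the knockout in DMSO (log2; adjusted p 4.3e-10 and 3.8e-11). The interaction was 1.56 for Cdk1 (SE 0.22, adjusted p 0.00012) and 2.02 for Ccnb1 (SE 0.51, adjusted p 0.014). Without Trem2 KO DMSO replicate 2 or Trem2 KO BafA1 replicate 1 that of Ccnb1 was 1.75 and 1.45, with adjusted p of 0.053 and 0.18. Ccnb2, cyclin B2, had 43 to 67 counts per library in WT DMSO, 7 to 10 in WT BafA1, and 0 to 4 in the knockout groups, where counting error leaves little precision. Its only library at 0, Trem2 KO DMSO replicate 3, allows up to 0.694 CPM (3 counts). An annotated pseudogene of Ccnb1 had 0 counts in all groups, and that of Ccnb2 had at most 3 summed counts in a group; how reads are shared with such copies is not known from the files.

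All 6 mitotic kinases were lower with BafA1 in WT and in the knockout in DMSO. Plk1, the Polo-like kinase of mitotic entry and spindle assembly, stood at 36.9, 42.6 and 39.2 CPM in WT DMSO, 7.72, 6.62 and 5.91 for WT BafA1, 1.85, 1.15 and 5.09 for Trem2 KO DMSO and 1.54, 1.00 and 0.926 for Trem2 KO BafA1. Trem2 KO DMSO replicate 3 lay well above the other knockout libraries. The interaction of Plk1 was 1.46 (SE 0.54, adjusted p 0.096) with that library and 2.27 (adjusted p 0.0047) without it. BafA1 in Trem2 KO gave -1.09 (SE 0.46, adjusted p 0.062), and -1.49 (adjusted p 0.0089) without Trem2 KO DMSO replicate 2. Aurkb, the kinase of the chromosomal passenger complex that releases wrongly attached chromosomes, stood at 11.96, 10.4 and 9.35 CPM, 1.51, 1.35 and 1.22, 0.924, 1.15 and 1.39, and 0.420, 0.401 and 0.232 CPM in the same order of groups. WT BafA1 and Trem2 KO DMSO overlapped for Aurkb, while Trem2 KO BafA1 lay below both. It was 2.93 lower (SE 0.28) with BafA1 in WT and 1.60 lower (SE 0.55, adjusted p 0.029) in Trem2 KO, and leaving out any of the 5 libraries named above ended the second call. Aurka, the kinase of the spindle poles, was at 20.1% of WT DMSO in WT BafA1 and at 20.2% in Trem2 KO DMSO. Ttk and Bub1b, kinases or kinase-like proteins of the spindle checkpoint, were at 21.8% and 17.8% in WT BafA1 and at 12.96% and 23.8% in Trem2 KO DMSO. Bub1, a checkpoint kinase of the kinetochore, was at 27.2% and at 7.90%.

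The checkpoint protein Mad2l1, which binds and restrains Cdc20, fell less than most members. Its levels were 38.2, 42.3 and 37.1 CPM in WT DMSO, 20.3, 19.4 and 15.3 for WT BafA1, 12.01, 12.6 and 8.10 for Trem2 KO DMSO and 11.8, 14.6 and 12.97 for Trem2 KO BafA1. BafA1 lowered it, at -1.09 (SE 0.14, adjusted p 6.5e-07) in WT, and the value in Trem2 KO was 0.25 (SE 0.18, adjusted p 0.29). Its interaction of 1.34 (SE 0.22, adjusted p 0.00062) was called without each library in turn. Cdc20 stood at 6.62, 6.23 and 7.27 CPM in WT DMSO, 0.671, 1.80 and 1.04 for WT BafA1, 1.39, 2.48 and 0.926 for Trem2 KO DMSO and 0.981, 0.801 and 1.16 for Trem2 KO BafA1. The 3 lower groups overlapped, and no order among them could be read at this depth. Ube2c, the ubiquitin-conjugating enzyme of the anaphase-promoting complex, was at 19.0%, 10.5% and 6.89% of WT DMSO in WT BafA1, Trem2 KO DMSO and Trem2 KO BafA1.

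Kinetochore genes split in the knockout. Cenpa stood at 31.4, 29.5 and 29.5 CPM in WT DMSO, 8.73, 7.67 and 6.60 for WT BafA1, 17.3, 12.2 and 14.1 for Trem2 KO DMSO and 4.62, 1.80 and 6.25 for Trem2 KO BafA1. The knockout libraries in DMSO lay between both WT groups, and those in BafA1 lay below all others. Cenpa was lower with BafA1 both in WT (-1.97, SE 0.19, adjusted p 1.7e-08) and in Trem2 KO (-1.78, SE 0.25, adjusted p 4.3e-06). The interaction was 0.19 with a 95% interval from -0.50 to 0.88 and an adjusted p of 0.79, the smallest interaction of the 37 members. In Trem2 KO DMSO it kept 48.3% of the WT DMSO mean. Its call for Trem2 KO against WT in BafA1 (-0.87, adjusted p 0.018) was lost without WT BafA1 replicate 1 (-0.77, 0.079) or Trem2 KO BafA1 replicate 2 (-0.54, 0.094).

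Cenpf, a large kinetochore and nuclear matrix protein of G2 and mitosis, stood at 29.0, 30.8 and 49.1 CPM in WT DMSO, 10.6, 7.52 and 10.9 for WT BafA1, 5.78, 4.58 and 5.32 for Trem2 KO DMSO and 10.7, 6.41 and 7.87 for Trem2 KO BafA1. The knockout libraries in BafA1 were all above those in DMSO and overlapped those of WT BafA1. The log2 value of BafA1 in Trem2 KO was 0.71 (SE 0.29, adjusted p 0.051), just short of the threshold. It passed when any of WT DMSO replicates 1 to 3, WT BafA1 replicate 2 or Trem2 KO BafA1 replicate 2 was left out, with 0.72 to 0.89 and adjusted p of 0.018 to 0.048. Its interaction was 2.64 (SE 0.35, adjusted p 4.8e-05), with a fall of -1.93 (SE 0.20) in WT. Spc25, a subunit of the Ndc80 complex that grips microtubules, stood at 48.0, 48.0 and 46.6 CPM in WT DMSO, 10.1, 10.5 and 10.8 for WT BafA1, 11.3, 7.63 and 13.2 for Trem2 KO DMSO and 12.3, 9.82 and 12.5 for Trem2 KO BafA1. The 3 lower groups lay together at 22.0% to 24.3% of WT DMSO. Its values of BafA1 in Trem2 KO (0.13, SE 0.18) and Trem2 KO against WT in BafA1 (0.15, SE 0.17) had adjusted p of 0.59 and 0.56. The other subunits of that complex, Ndc80, Nuf2 and Spc24, were at 17.4%, 18.5% and 16.5% of WT DMSO in WT BafA1 and at 19.3%, 12.9% and 10.6% in Trem2 KO DMSO. Cenpe, a kinetochore motor, stood at 23.9, 31.8 and 46.3 CPM in WT DMSO and at 16.8%, 17.7% and 8.71% of that mean in the other groups.

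Among the partners of Aurkb in the chromosomal passenger complex, the losses were far apart. Birc5, survivin, which brings the complex to centromeres, stood at 133, 108 and 109 CPM in WT DMSO, 28.4, 22.1 and 19.5 for WT BafA1, 7.85, 5.54 and 7.87 for Trem2 KO DMSO and 4.20, 3.21 and 4.40 for Trem2 KO BafA1. No group overlapped another. It was lower, at -2.32 (SE 0.12, adjusted p 9.5e-13) with BafA1 in WT, at -4.05 (SE 0.16, adjusted p 2.3e-14) in the knockout in DMSO and at -2.55 (SE 0.20, adjusted p 4.6e-09) in the knockout in BafA1. Incenp, the scaffold of the same complex, stood at 48.3, 40.4 and 53.6 CPM in WT DMSO, 28.2, 24.7 and 27.3 for WT BafA1, 19.4, 27.3 and 24.5 for Trem2 KO DMSO and 23.3, 23.6 and 16.9 for Trem2 KO BafA1. It kept 56.3%, 50.1% and 44.9% of the WT DMSO mean, and the 3 lower groups overlapped in part. Its interaction of 0.68 (SE 0.20, adjusted p 0.04) was lost when any of 9 libraries was left out, with 0.54 to 0.71 and adjusted p of 0.058 to 0.12.

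Of the spindle motors and factors, Kif11 stood at 16.2, 15.0 and 16.6 CPM in WT DMSO, 2.85, 1.504 and 2.26 for WT BafA1, 3.00, 2.29 and 1.39 for Trem2 KO DMSO and 0.981, 0 and 0.695 for Trem2 KO BafA1. Its library at 0 counts allows up to 0.601 CPM. WT BafA1 and Trem2 KO DMSO overlapped for Kif11, and Trem2 KO BafA1 lay below both, with a log2 value of -1.85 (SE 0.54, adjusted p 0.0083) for BafA1 in Trem2 KO. Tpx2, which activates Aurka and nucleates spindle microtubules, kept 36.3%, 25.7% and 23.4% of WT DMSO in WT BafA1, Trem2 KO DMSO and Trem2 KO BafA1. Nusap1, which binds and stabilizes spindle microtubules, kept 19.5%, 9.20% and 6.97%. Kif4, a chromosome-bound motor, had 18 to 26 counts per library in WT DMSO and at most 7 elsewhere, and its differences among the other groups were not called.

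The 6 central spindle and cytokinesis genes stood at 14.6% to 27.8% of WT DMSO in WT BafA1 and at 7.88% to 38.9% in Trem2 KO DMSO. Prc1, which bundles the central spindle, stood at 38.01, 35.4 and 43.8 CPM in WT DMSO, 7.72, 4.81 and 8.51 for WT BafA1, 4.16, 2.29 and 2.78 for Trem2 KO DMSO and 1.82, 2.60 and 2.78 for Trem2 KO BafA1. Its losses were called without each library in turn in both genotype comparisons, at -3.68 (SE 0.22, adjusted p 2.7e-11) in DMSO and -1.57 (SE 0.28, adjusted p 0.00027) in BafA1. Ect2, the exchange factor that switches on RhoA at the cleavage furrow, stood at 18.1, 14.7 and 15.4 CPM in WT DMSO, 3.69, 4.66 and 1.91 for WT BafA1, 3.23, 1.91 and 2.55 for Trem2 KO DMSO and 4.62, 3.00 and 2.78 for Trem2 KO BafA1. It had the largest interaction of the members, 2.71 (SE 0.43, adjusted p 0.00034), and the 3 lower groups overlapped. Kif23, a motor of the centralspindlin complex, was at 38.9% of WT DMSO in Trem2 KO DMSO and its partner Racgap1 at 17.0%. Kif20a, a motor of late mitosis, and Anln, an actin-binding protein of the cleavage furrow, were at 12.8% and 13.1%.

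Among the chromosome structure genes, Top2a had the smallest adjusted p of all members in both comparisons with WT DMSO. It stood at 158, 172 and 186 CPM in WT DMSO, 38.8, 30.4 and 33.9 for WT BafA1, 19.9, 14.5 and 15.0 for Trem2 KO DMSO and 9.81, 9.62 and 10.9 for Trem2 KO BafA1. No group overlapped another, and each step was called: -2.33 (SE 0.10) with BafA1 in WT, -3.39 (SE 0.12) in the knockout in DMSO, -0.70 (SE 0.16) with BafA1 in the knockout and -1.77 (SE 0.14) in the knockout in BafA1, with adjusted p of 6.5e-14, 4.5e-15, 0.0013 and 6.8e-09. Smc4 stood at 121, 130 and 176 CPM in WT DMSO, 63.6, 58.0 and 55.4 for WT BafA1, 98.4, 117 and 102 for Trem2 KO DMSO and 67.0, 83.5 and 75.7 for Trem2 KO BafA1. The knockout libraries in DMSO lay just below WT DMSO, at 74.5% of its mean, the highest share of any member there. Those in BafA1 lay above WT BafA1. Smc2 was at 42.8% in Trem2 KO DMSO and at 40.8% in WT BafA1, with a value of 0.06 (SE 0.11, adjusted p 0.64) between those groups.

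Mki67, the coat protein of mitotic chromosomes used as a marker of dividing cells, stood at 33.5, 31.0 and 55.0 CPM in WT DMSO, 11.1, 8.87 and 9.90 for WT BafA1, 3.46, 3.25 and 3.70 for Trem2 KO DMSO and 5.04, 4.01 and 4.86 for Trem2 KO BafA1. Among knockout libraries those in BafA1 were above those in DMSO, with a value that was not called (0.43, SE 0.33, adjusted p 0.32). WT DMSO replicate 3 was the highest of its group for Mki67, Cenpe, Cenpf and Smc4, and for 20 of the 37 tested members in all. Ncapg, a condensin subunit, was at 21.4%, 11.7% and 8.64% of WT DMSO in the other groups.

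**Figure D4:**
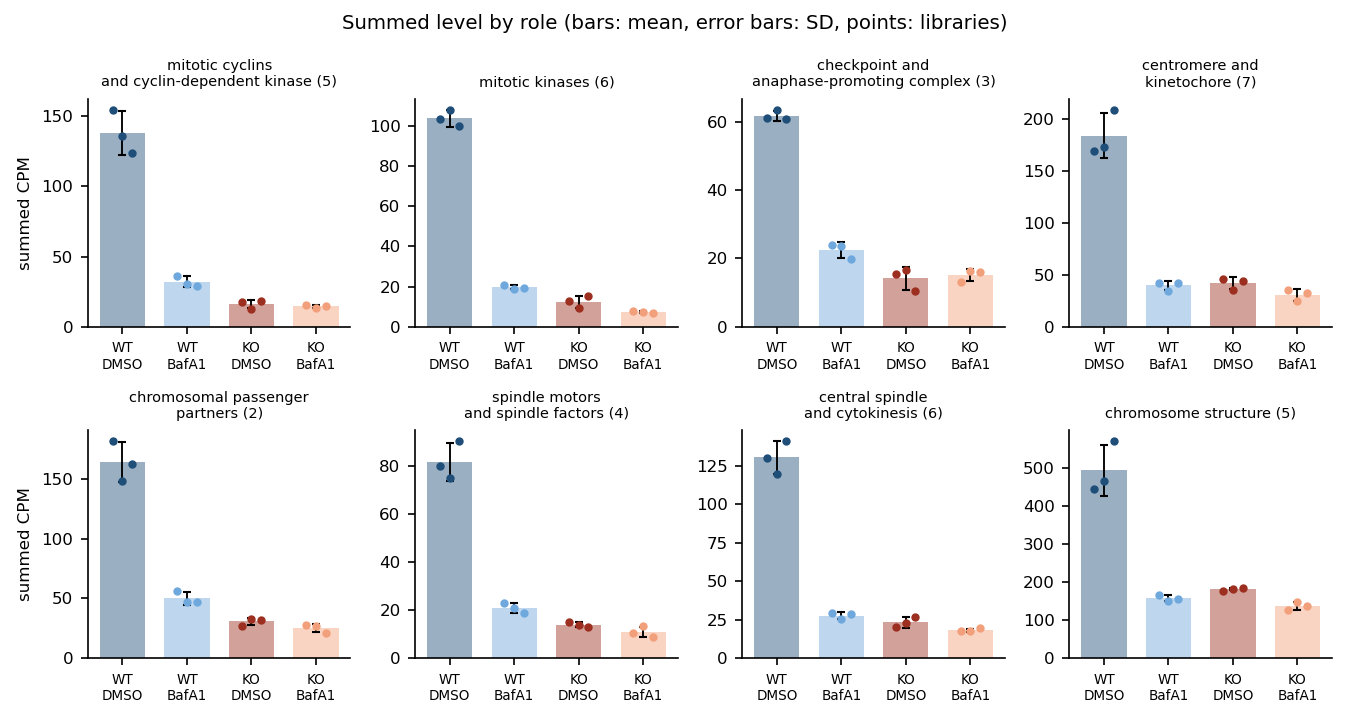
Summed CPM of the members of each role (panels, number of members in brackets) in the 4 groups, with bars for the mean of 3 libraries, error bars for the SD and points for libraries, and y axes from 0 that differ between panels. Chromosome structure falls from a mean of 493 CPM in WT DMSO to 157 in WT BafA1 and 181 in Trem2 KO DMSO, and cyclins and Cdk1 from 138 to 32.0 and 16.4.

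By role, the cyclins and Cdk1 summed to 23.2% of WT DMSO in WT BafA1 and 11.9% in Trem2 KO DMSO, the mitotic kinases to 18.9% and 12.01%, and cytokinesis genes to 21.3% and 17.8%. The kinetochore genes stood at 21.6% and 22.8%, and their sums in those groups, 39.8 ± 4.27 and 42.0 ± 5.73 CPM (SD, n = 3), differed by less than the spread between replicates. The chromosome structure genes stood at 31.9% and 36.7%, with sums of 157 ± 8.06 and 181 ± 2.90 CPM (SD, n = 3) that did not overlap; Smc4, at 41.5% and 74.5%, was higher in Trem2 KO DMSO, while Top2a (20.0% and 9.58%) and Mki67 (25.0% and 8.71%) were lower there. The 23 members with a CHR within 50 bases of the start had a median of 14.4% of WT DMSO in Trem2 KO DMSO, with a range of 4.87% to 48.3%. The 7 with a promoter entry and no such match had 9.20%, with a range of 6.07% to 27.8%. The ranges overlapped.

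Other genes of these pathways were taken from lists of known function. Over all tested genes 25.3% were lower and 21.6% higher with BafA1 in WT, and 16.5% and 13.8% in the knockout in DMSO. Of 28 tested further genes of the spindle, motors and cytokinesis, all 28 were lower with BafA1 in WT and 24 were lower in Trem2 KO DMSO against WT DMSO. Aspm, a spindle pole protein, was among them, at -2.83 (SE 0.23) and -4.09 (SE 0.28). Of 38 further kinetochore and checkpoint genes, 28 were lower and 1 higher with BafA1 in WT, and 30 were lower and 1 higher in the knockout in DMSO; Spdl1, which recruits dynein to kinetochores, was the exception in both (0.51 and 1.10). The subunits and partners of the anaphase-promoting complex, were 17 among the tested genes. Of these 3 were lower and 2 higher with BafA1 in WT (25.3% and 21.6% of all tested genes), and 5 were lower and 2 higher in the knockout in DMSO (16.5% and 13.8%). The lower ones included Fbxo5, an inhibitor of that complex, at -2.20 (SE 0.29) and -1.96 (SE 0.30). With BafA1 in Trem2 KO, 8 of the further spindle, motor and cytokinesis genes were lower and 1 higher. Of the further kinetochore and checkpoint genes 3 were lower and 3 higher there. Of the anaphase-promoting complex genes 0 were lower and 3 higher. Over all tested genes the shares in that comparison were 20.7% and 19.8%.

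The condensin, cohesin and separase genes, 18 tested, had 15 lower members with BafA1 in WT but a median log2 fold change of -0.42. In the knockout in DMSO 7 were lower, with Ncapd2, a condensin I subunit, at -2.56 (SE 0.20), and 1 was higher, the condensin II subunit Ncapg2, at 1.14 (SE 0.12, adjusted p 8.4e-08). Among 15 G2 kinases, phosphatases and their regulators, 10 were lower and 2 higher with BafA1 in WT, and 12 were lower and 1 higher in the knockout in DMSO. For both lists, the shares over all tested genes were 25.3% and 21.6% with BafA1 in WT, and 16.5% and 13.8% in the knockout. With BafA1 in Trem2 KO, 6 of the condensin, cohesin and separase genes were lower and 0 higher. Of the G2 list 2 were lower and 4 higher there, beside 20.7% and 19.8% of all tested genes. Wee1, the kinase that keeps Cdk1 inactive, was higher with BafA1 in both genotypes, by 0.46 in WT and 0.57 (SE 0.12, adjusted p 0.00064) in Trem2 KO. Cks1b, a Cdk1-binding subunit, was -2.62 (SE 0.14) in the knockout in DMSO. Its means were 9.08 CPM in Trem2 KO DMSO and 16.2 CPM in Trem2 KO BafA1, beside 56.1 and 37.6 CPM in WT.

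DNA replication and G1/S genes, which act before G2, were the comparison list. Of the 41 tested, 39 were lower with BafA1 in WT (25.3% of all tested genes), with a median of -1.37. In the knockout in DMSO 36 were lower (16.5% of all tested genes), with a median of -1.39. The medians of the mitotic members in the same comparisons were -2.29 and -2.91. In Trem2 KO 11 were lower with BafA1 (20.7% of all tested genes), and 24 were called higher in the interaction (4.88%).

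Of 11 regulators of G2/M transcription, 7 were lower and 1 higher with BafA1 in WT (25.3% and 21.6% of all tested genes). In the knockout in DMSO 5 were lower and 0 higher (16.5% and 13.8%). Foxm1, the activator of late cell-cycle genes, was at 6.91 ± 0.45 CPM (SD, n = 3) in WT DMSO, 2.48 ± 0.69 for WT BafA1, 0.51 ± 0.59 for Trem2 KO DMSO and 0.77 ± 0.28 for Trem2 KO BafA1. It was lower, at -1.48 (SE 0.34, adjusted p 0.00085) with BafA1 in WT and at -3.72 (SE 0.48, adjusted p 2.5e-06) in the knockout in DMSO. Mybl2, its partner in activation, and the repressor E2f7 were lower in both comparisons, at -2.52 and -4.42 for Mybl2 and -2.97 and -4.50 for E2f7. Of the MuvB subunits, Lin9 was lower with BafA1 in WT (-0.63, SE 0.11), Lin52 was higher there (0.47, SE 0.14), and Lin37 and Lin54 were called in neither comparison. The pocket protein Rbl1 was lower in both (-0.78 and -0.85), and Rbl2 with BafA1 in WT (-0.52, SE 0.13). The DREAM factor E2f4 was not called in either, and E2f4 had values of -0.0069 (SE 0.15) and 0.073 (SE 0.16). Ccnd1, the cyclin through which growth signals start the cycle, was lower in every one of the 4 comparisons, at -1.88 (SE 0.12) with BafA1 in WT, at -2.38 (SE 0.17) in Trem2 KO, at -2.59 (SE 0.12) in the knockout in DMSO and at -3.09 (SE 0.16) in BafA1. Cdkn1a, an inhibitor of cyclin-dependent kinases, was lower with BafA1 in both genotypes (-0.59 and -0.58). Cdkn1b was not called, at 0.16 (SE 0.09) and 0.18 (SE 0.09). Ccnd2, Ccnd3 and Cdkn2c had means of 10.8, 35.8 and 9.27 CPM in WT DMSO and 3.23, 26.6 and 3.69 CPM in WT BafA1. In Trem2 KO they had 8.14, 18.4 and 4.54 CPM in DMSO and 3.14, 13.5 and 5.05 CPM in BafA1. Of these 6 genes of cycle entry and exit, 5 were lower and 0 higher with BafA1 in WT (25.3% and 21.6% of all tested genes). In the knockout in DMSO 4 were lower and 0 higher (16.5% and 13.8%).

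Markers of other marrow cells moved with the groups. The 10 granulocyte markers summed to 159 to 177 CPM in WT DMSO, 48.0 to 59.6 for WT BafA1, 402 to 686 for Trem2 KO DMSO and 70.8 to 125 for Trem2 KO BafA1, with Ly6g at 0 in WT DMSO and in Trem2 KO BafA1. The 4 monocyte markers summed to 60.5 to 72.8, 1.68 to 2.78, 78.3 to 119 and 5.41 to 7.41 CPM. The 10 markers of marrow progenitors, which include dividing cells, summed to 4.21 to 4.48 CPM in WT DMSO and to 6.72 to 11.6 CPM in the other groups, with Mpo and Ms4a3 at 0 in WT BafA1. Kit made up most of the sum in BafA1, with means of 5.94 CPM in WT and 6.59 CPM in Trem2 KO, beside 0.72 and 1.45 CPM in DMSO. The other 9 progenitor markers, such as Cd34 and Flt3, summed to 3.37 to 4.06 CPM in WT DMSO, 1.20 to 1.68 for WT BafA1, 6.30 to 8.56 for Trem2 KO DMSO and 0.926 to 2.40 for Trem2 KO BafA1. Without Kit, the sum was lower in BafA1 in both genotypes and higher in the knockout in DMSO, with no overlap between those groups and WT DMSO. The part of these cells in the results was not tested.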

How the data were processed

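RNA of 12 libraries was measured, 3 in each of 4 groups assigned from the labels; the labels give no batch. Per the labels' protocols, the kit sequenced 3′ ends of mRNA and added molecular identifiers, and per the submitters' processing notes Salmon and GRCm39 were used; the sources used here do not give versions, annotation or the duplicate-removal step. The deposited table holds the authors' estimated counts per gene, not normalized, of which 42% of the values above 0 were not whole (tolerance 1e-06); they were rounded to whole numbers. The authors' deposited log2 CPM table differed by at most 0.00045 from log2 CPM recomputed with a prior count of 2 and entered no test. The deposited gene table gave the symbols.

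The filter was filterByExpr with a minimum count of 10 and a total of 15, which left 12052 genes. The test was run in edgeR 4.0.16 and R 4.3.3 (TMM, quasi-likelihood test, 12 libraries in 1 fit, group means, no block), with Benjamini-Hochberg adjustment over all genes tested and a threshold of 0.05. The common biological coefficient of variation was 0.0795. Totals were 4407466 to 7074860 per library, and a library with 0 counts of a gene allows up to 3 counts, for counting error only. Replicates of a group differed beyond sampling noise (chi-square of 2.16 to 5.63 per degree of freedom). The 38 members and the other gene lists were chosen with earlier results of these data known. All members were named; of the other lists, the 3 genes with the smallest p in a comparison, genes called against the direction of their list, and a panel of regulators could be named. Alternatives were RLE, upper-quartile or no normalization factors, DESeq2 1.42.0, limma-voom (limma 3.58.1), no filter, a minimum of 10 CPM in 3 libraries, fits on the compared libraries alone, a fold limit of 1.5, replicate blocks, and leaving out each library.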

Additional observations from a re-analysis of the deposited data

Results flagged for a closer look

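For 24 members the response to BafA1 differed between the genotypes by the interaction term of the edgeR fit, given here as the log2 fold change in Trem2 KO minus that in WT. In Trem2 KO the log2 fold change was above 0, and not called by edgeR, for 5 of them. These were Mad2l1 (0.25), Cenpf (0.71), Spc25 (0.13), Ect2 (0.51) and Mki67 (0.43). For the rest the fall was smaller, or absent from the calls, in Trem2 KO. Among cyclins and kinases it was 2.65 for Ccna2, 2.02 for Ccnb1, 1.56 for Cdk1, 1.64 for Aurka and 1.82 for Ttk. The checkpoint and kinetochore genes had 1.34 for Mad2l1, 1.59 for Cenpe, 2.64 for Cenpf, 1.92 for Ndc80, 2.19 for Nuf2, 2.26 for Spc24 and 2.31 for Spc25. For the chromosomal passenger and spindle genes it was 1.496 for Birc5, 0.68 for Incenp, 1.32 for Tpx2 and 1.98 for Nusap1. Central spindle and cytokinesis genes had 1.41 for Kif23, 2.11 for Prc1, 1.63 for Racgap1 and 2.71 for Ect2. For chromosome structure it was 1.07 for Smc2, 0.77 for Smc4, 1.62 for Top2a and 2.45 for Mki67. The level in Trem2 KO DMSO, from which the response in Trem2 KO starts, was already below WT DMSO for all 24. Groups of 3 libraries were not tested for outlying samples.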

How the results depend on the processing

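The counts of lower members with BafA1 in WT (37) and in Trem2 KO against WT in DMSO (37) ranged from 28, where a filter of 10 CPM left 28 members to test, to 38, where no filter was set. Leaving out each library gave 37 and 36 to 37. With BafA1 in Trem2 KO leaving out a library gave 4 to 7 lower members and 0 to 1 higher; 1 was higher, against 0, with upper-quartile factors, DESeq2, no filter or only the libraries compared. In Trem2 KO against WT in BafA1 it gave 16 to 22 lower and 0 to 1 higher, and 0 were higher with library size alone, limma-voom or the fold limit. For the interaction it gave 20 to 24, and for Trem2 KO DMSO against WT BafA1 11 to 17 lower and 2 to 3 higher. A fold limit of 1.5, which asks for more than a difference from 0, left 1 lower member with BafA1 in Trem2 KO, 7 lower in Trem2 KO against WT in BafA1, 10 in the interaction, and 7 lower and 1 higher in Trem2 KO DMSO against WT BafA1. The cause of the other shifts was not tested.

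Samples with the same replicate number did not deviate together in every pair of groups (correlations of -0.114 to 0.164), so the numbers were not taken as pairs. Between Trem2 KO DMSO and Trem2 KO BafA1 they were 0.0737 to 0.164 for the same number and -0.114 to -0.00278 for different numbers, and with a replicate block within genotype Plk1 was called lower with BafA1 in Trem2 KO (-1.06, adjusted p 0.045) and called in the interaction (1.49, adjusted p 0.049). With a replicate block 1 member was higher with BafA1 in Trem2 KO, also with a replicate block within genotype, and 23 or 27 were called in the interaction. Of 145 calls of single members 97 were lost in no setting in which they were tested, and none changed sign. The filter of 10 CPM removed low members, and the block within genotype and the fits on the compared libraries did not cover every comparison. Of 77 results not called 61 were called under no setting, and 48 sign changes fell among those. Depth limits the rarest members: 10 had under 10 counts in all 3 libraries of Trem2 KO DMSO and 15 had so few in Trem2 KO with BafA1.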

Other observations

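Several neighbours of the members in these pathways had other patterns. Ncapg2, a condensin II subunit, was at 26.5 ± 1.64 CPM (SD, n = 3) in WT DMSO, 15.9 ± 1.96 for WT BafA1, 58.2 ± 4.14 for Trem2 KO DMSO and 24.2 ± 3.62 for Trem2 KO BafA1, and it was higher in the knockout in DMSO (log2 difference 1.14, SE 0.12, adjusted p 8.4e-08 by edgeR). Numa1, which anchors microtubules at spindle poles, had means of 78.3 and 76.8 CPM in WT and Trem2 KO in DMSO and of 39.3 and 36.5 CPM in BafA1. Ensa, which inhibits the phosphatase that opposes Cdk1, was higher with BafA1 in WT (0.52, adjusted p 0.00064) and in the knockout in DMSO (0.57, adjusted p 0.00062). Cdc25c, which was not tested, stood at 1.495, 1.52 and 1.48 CPM in WT DMSO and at 0 to 0.463 CPM in the other 9 libraries. Over the 37 tested members 90.8% of the variance between libraries lay on a single principal component and 2.88% on the next. On the first, the WT DMSO libraries scored 11.7 to 12.5 and the other libraries -7.24 to -0.145, so it restates the group levels given above. The share over all tested genes is not given.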
